A study of Solanum lycopersicum with 8 samples.

Results

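The genes described here are those that were nearly shut off when TOR kinase was inhibited in tomato seedlings. They were chosen by their measured values: at least 1 FPKM on average over the 4 mock libraries, a mean over the 4 Torin2 libraries of at most 1/8 of that, and every Torin2 value below every mock value. FPKM counts the sequenced fragments of a gene per kilobase of its length and relative to the depth of the library. Peroxidases, as named in the study's gene descriptions, were left out. The rule took 84 of the 34688 genes in the table, out of 18166 genes that reached 1 FPKM in mock-treated seedlings, and with the 9 peroxidases it would take 0.512% of these. Since the difference between the groups chose these genes, their levels are a description, and no test of that difference is given for them.

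Both groups were 10-day-old wild-type seedlings of the cultivar Micro-Tom, harvested whole, with 4 biological replicates each. One group received 5 μM Torin2, and the other a mock treatment with the solvent, 0.1% DMSO, for the 2 h stated in the study's text. Root, stem and leaf are mixed in each library, so that fewer cells of a type and less RNA per cell cannot be told apart. The depth was 36989290 to 39651710 fragments in the Torin2 libraries and 38367280 to 39868170 in the mock libraries.

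TOR (target of rapamycin) is a conserved protein kinase that ties growth to nutrient and energy supply, and Torin2 blocks its ATP site. Plant cells grow by loosening and extending the wall around them. Xyloglucan endotransglucosylase/hydrolases cut and rejoin the xyloglucan that tethers cellulose, expansins loosen the wall without cutting it, pectinesterases change the charge and stiffness of pectin, and extensins are rod-like glycoproteins that are cross-linked into the finished wall. Root hairs, long outgrowths of single root epidermal cells, extend at the tip and use dedicated members of these families.

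Together the 84 genes summed to 64.6, 37.0, 50.5 and 36.3 FPKM in Torin2 replicates 1 to 4, against 838, 1073, 819 and 713 FPKM in mock replicates 1 to 4. The Torin2 sum was 5.47% of the mock sum, with means of 47.1 ± 13.4 FPKM and 861 ± 152 FPKM (SD, n = 4 each). The groups lay far apart, and in both the libraries differed among themselves, most of all through the high Torin2 replicate 1 and the high mock replicate 2. Gene by gene, the Torin2 mean ran up to 6.53 FPKM with a median of 0.298 FPKM, and the mock mean from 1.06 to 67.7 FPKM with a median of 6.04 FPKM. In Torin2, 74 of the 84 genes averaged below 1 FPKM and 20 below 0.1 FPKM, whereas in mock 26 averaged 10 FPKM or more. What was left in Torin2 had a median of 5.79% of the mock mean, and 45 genes were at or below 1/16. In the scatter of mean levels the 84 genes lie below the line at 1/8 because the rule placed them there. The genes just outside this limit kept 14.0%, 14.6% and 15.3% of their mock means.

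**Figure D1:**
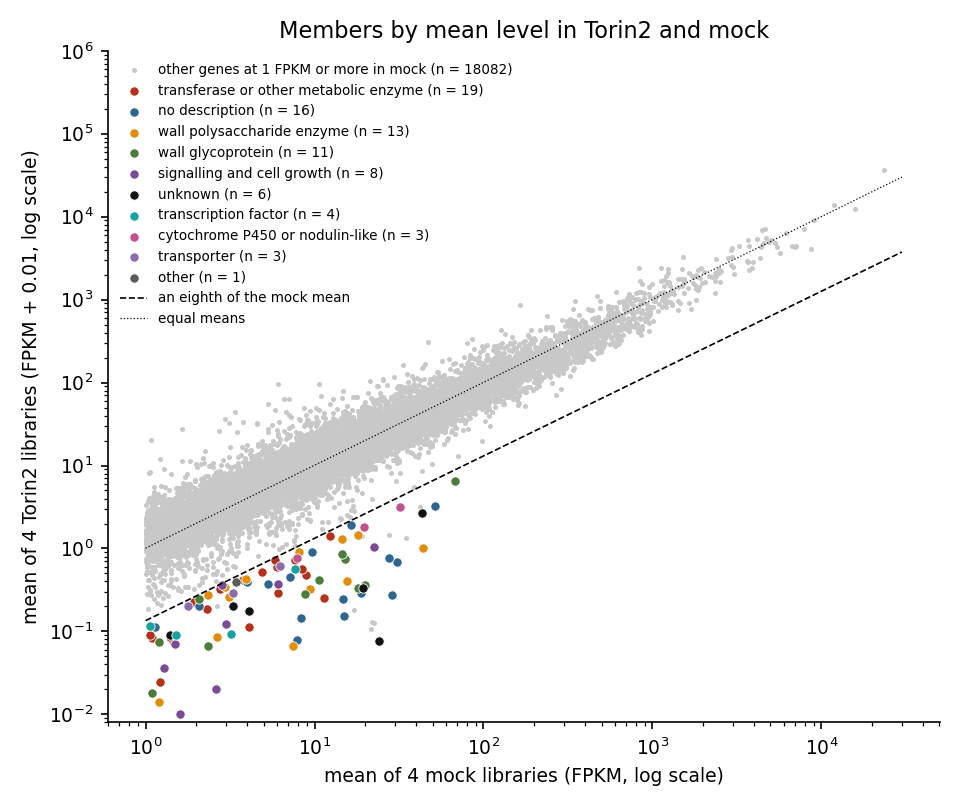
Mean FPKM of the 4 Torin2 libraries (vertical, 0.01 added, log scale) against the mean of the 4 mock libraries (horizontal, log scale) for the 18082 other genes at 1 FPKM or more in mock (grey) and the 84 chosen genes (coloured by class of description). The dashed line is 1/8 of the mock mean, so the coloured points lie below it by choice, and the grey points below it are the 9 peroxidases that were left out.

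Descriptions from the study's gene list were read for 68 of the 84 genes. The study listed only genes that it had itself found to differ in these libraries, so the descriptions say what the genes are and add no evidence of the change. By keywords, 19 genes were transferases or other metabolic enzymes, 13 enzymes of wall polysaccharides, 11 wall glycoproteins, 8 signalling or cell growth proteins, 4 transcription factors, 3 cytochrome P450 or nodulin-like proteins, 3 transporters, 6 unknown proteins and 1 a heat shock protein. The wall glycoproteins kept a median of 3.81% of their mock mean, the wall polysaccharide enzymes 7.87% and the metabolic enzymes 7.51%. The ranges were wide inside each of these classes, from 0.740% to 11.5% among the wall glycoproteins and from 0.350% to 11.4% among the wall polysaccharide enzymes, as the plot by class shows.

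**Figure D2:**
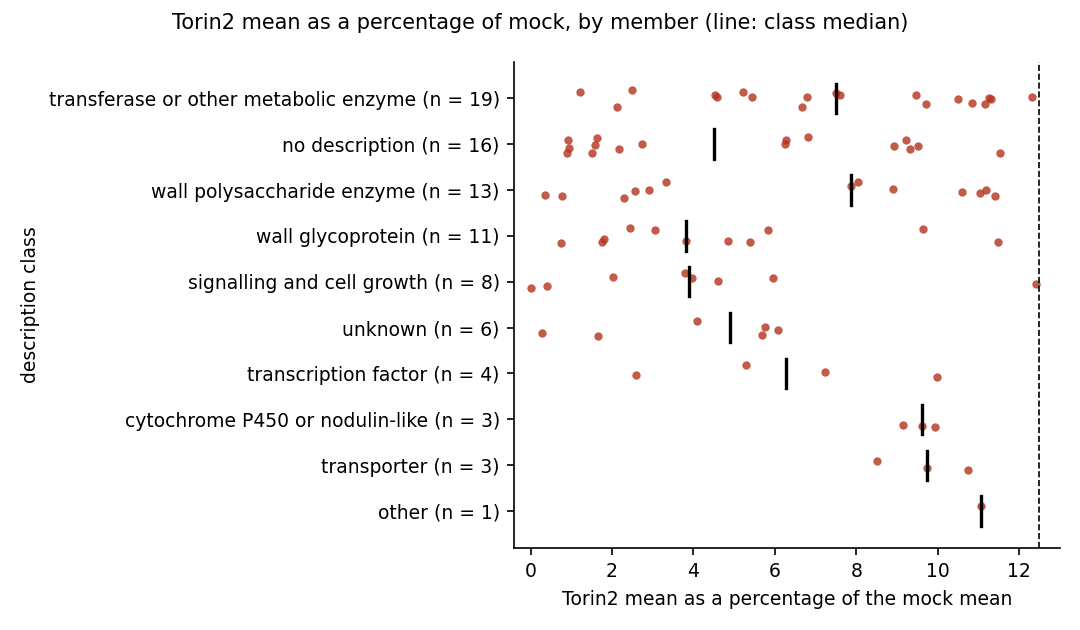
Torin2 mean as a percentage of the mock mean (horizontal) for each of the 84 genes, 1 point a gene, in rows by class of description with a black line at the class median. The dashed line is the limit of the rule at 1/8. The ranges of the classes with 6 or more genes overlap, with class medians between 3.81% and 7.87%.

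The most abundant gene of all was Solyc09g075410.5 (SRPP), described as a pollen Ole e 1 allergen/extensin. In Arabidopsis, SRPP is named for its part in protecting seeds and root hairs. It had 11.5, 3.56, 7.35 and 3.73 FPKM in Torin2 replicates 1 to 4, against 58.4, 80.1, 68.3 and 63.9 FPKM in mock replicates 1 to 4. It thus kept 9.64% of its mock mean, and it alone made up 7.86% of the summed mock level of the 84 genes. No other chosen gene had as high a mean in Torin2.

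Extensins made up most of the other wall glycoproteins. Solyc01g005850.3, annotated as extensin-like protein Dif54, and Solyc01g005880.1, Solyc01g097720.1 and Solyc02g030220.1, all annotated as Dif10, carry names first given to tomato genes found in root hairs. Solyc01g005850.3 had 1.06, 0.793, 0.819 and 0.735 FPKM in Torin2, against 20.5, 17.9, 13.5 and 6.43 FPKM in mock. Solyc01g097720.1 had 0.440, 0.673, 0.770 and 1.04 FPKM in Torin2, against 19.1, 21.5, 11.7 and 7.96 FPKM in mock. Both were low in every Torin2 library and lowest within mock in replicate 4, the same library in which Solyc01g005880.1 had its lowest mock value. Solyc01g005880.1 averaged 0.270 ± 0.193 FPKM in Torin2 and 8.81 ± 4.07 FPKM in mock, and Solyc02g030220.1 averaged 0.0574 ± 0.0317 FPKM in Torin2 and 2.35 ± 0.970 FPKM in mock (SD, n = 4 each).

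A second group of extensins stood side by side on chromosome 12. Solyc12g049070.1, described as extensin-like, had 0.348, 0.384, 0.187 and 0.378 FPKM in Torin2, against 17.5, 23.0, 15.7 and 15.7 FPKM in mock. Solyc12g049090.3, annotated as Ext1 like the next 2 genes, had 0.437, 0.227, 0.492 and 0.468 FPKM in Torin2, against 10.9, 11.8, 9.88 and 10.0 FPKM in mock. They kept 1.80% and 3.81% of the mock mean, and in each a single Torin2 library, replicate 3 of the first and replicate 2 of the second, lay below the other 3. The weaker copies Solyc12g049040.1 and Solyc12g049140.1 averaged 1.20 and 1.08 FPKM in mock, and each had at least 2 Torin2 libraries at 0. For Solyc12g049140.1, 1 fragment in the 4 Torin2 libraries stood against 134 in the 4 mock libraries, which gives 0.740% of the mock mean with a 95% counting interval (exact binomial) of 0.0192% to 4.33%.

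Another proline-rich protein of the wall, the hydroxyproline-rich glycoprotein Solyc12g044710.1, had 0.295, 0.306, 0.379 and 0.422 FPKM in Torin2, against 19.8, 25.5, 17.4 and 17.4 FPKM in mock. Its Torin2 values lay within a narrow band at 1.75% of the mock mean. Solyc11g069970.1 (NHL6), a hydroxyproline-rich protein of the late embryogenesis abundant family, kept the largest share of the class, 11.5%, with means of 0.238 ± 0.138 FPKM in Torin2 and 2.08 ± 0.809 FPKM in mock (SD, n = 4 each).

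Among the enzymes of wall polysaccharides, 4 were xyloglucan endotransglucosylase/hydrolases. Solyc12g007250.1, Solyc12g007260.2 and Solyc12g007270.3 follow each other directly on chromosome 12 and all carry the symbol XTH26, that of an Arabidopsis gene expressed in root hairs. The first had 0.835, 1.31, 1.08 and 0.764 FPKM in Torin2, against 46.4, 51.6, 40.7 and 36.0 FPKM in mock. The second had 2.15, 0.705, 1.24 and 1.04 FPKM in Torin2, against 13.4, 18.0, 13.5 and 12.9 FPKM in mock, and the third 0.252, 0.407, 0.330 and 0.258 FPKM in Torin2, against 9.06, 11.8, 6.91 and 9.63 FPKM in mock. The 3 neighbours thus kept 2.29%, 8.89% and 3.33% of their mock means, and the one with the highest mock level kept the smallest share. Solyc11g040140.2 (XTH1) had 0.614, 1.56, 2.19 and 1.48 FPKM in Torin2, against 16.9, 23.0, 11.9 and 21.0 FPKM in mock, and kept 8.04%.

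The expansin Solyc08g007780.3 (EXPA30) was among the most completely silenced genes. It had 0.0953, 0.0330, 0.0340 and 0.0649 FPKM in Torin2, against 8.11, 8.82, 6.19 and 6.65 FPKM in mock, which is 0.763% of the mock mean on 7 fragments against 928. Pectin enzymes were represented by Solyc02g014300.2 and Solyc02g081990.3, both annotated as pectinesterases with the symbol PME46, and by the pectate lyase Solyc02g080910.4, an enzyme type that cleaves pectin. Solyc02g014300.2 had 0.376, 0.721, 0.279 and 0.207 FPKM in Torin2, against 16.8, 24.8, 9.08 and 11.2 FPKM in mock. The other pectinesterase averaged 0.247 ± 0.127 FPKM in Torin2 and 3.13 ± 1.21 FPKM in mock, and the pectate lyase 0.0765 ± 0.0729 FPKM in Torin2 and 2.64 ± 0.775 FPKM in mock (SD, n = 4 each). All 3 were higher in mock replicates 1 and 2 than in mock replicates 3 and 4, and no Torin2 library came near either pair.

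The remaining enzymes of the class act on other wall polymers. The endoglucanase Solyc02g014220.3, of a type that cuts cellulose-like chains, averaged 0.891 ± 0.164 FPKM in Torin2 and 8.07 ± 3.77 FPKM in mock. Solyc03g118930.2 (XAT2), a glycosyltransferase whose namesake in rice adds arabinose to xylan, had 1 fragment in the 4 Torin2 libraries against 294 in the 4 mock libraries, or 0.350% of the mock mean with a counting interval of 0.00878% to 1.95%. Solyc05g012730.1 (IRX10L), Solyc05g015497.1 (a glucuronoxylan methyltransferase) and Solyc01g068420.5 (TBL38) belong to families that build or decorate xylan and other wall polymers, and they kept 11.4%, 11.2% and 10.6% of their mock means, close to the limit of the rule.

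Regulators and parts of the growth machinery formed a small class. The actin-depolymerizing factor Solyc06g035980.5 (ADF7), a protein that severs and recycles actin filaments and that in Arabidopsis is known from pollen, had 2.12, 0.723, 1.03 and 0.267 FPKM in Torin2, against 18.6, 26.3, 23.2 and 21.9 FPKM in mock. It was the only member of this class above 10 FPKM in mock. Solyc07g065420.1 (MIZ1), named for an Arabidopsis gene needed for roots to bend towards water, had 0.424, 0.696, 0.189 and 0.144 FPKM in Torin2, against 5.91, 8.39, 4.78 and 5.31 FPKM in mock. Solyc10g005190.1, described as root hair specific 4, had 0.274, 0.155, 0.0267 and 0 FPKM in Torin2, against 2.83, 4.30, 2.77 and 2.12 FPKM in mock. In both genes, Torin2 replicates 3 and 4 lay below Torin2 replicates 1 and 2.

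The CRIB-domain protein Solyc06g008240.3 (RIC6) belongs to a family of effectors of ROP GTPases, switches that mark the site of polar growth. It averaged 0.0260 ± 0.0208 FPKM in Torin2 and 1.28 ± 0.660 FPKM in mock (SD, n = 4 each). Solyc09g014730.4 (WAK2), a receptor-like kinase of a family that binds pectin, averaged 0.0597 ± 0.0369 FPKM in Torin2 and 1.50 ± 0.738 FPKM in mock. Solyc03g059080.3, a protein kinase, stood just inside the rule with 12.4% of its mock mean. Solyc03g032243.2 (IQD20) belongs to a family of calmodulin-binding scaffold proteins. Its 1 fragment in Torin2 against 250 in mock amounts to 0.398% of the mock mean, with a counting interval of 0.0103% to 2.30%.

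A single gene had no fragment in any Torin2 library. Solyc12g038680.1, which encodes a cysteine- and histidine-rich C1 domain protein, was at 0 in all 4 Torin2 libraries, against 1.92, 0.585, 2.04 and 1.82 FPKM in mock. With the floor set at 3 fragments per library, it was at least 13.3-fold lower in Torin2, and mock replicate 2 lay far below the other mock libraries.

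Of the 4 transcription factors, Solyc06g082450.1 (OFP17), of the ovate family of repressors, was the most abundant. It had 0.400, 0.369, 0.668 and 0.772 FPKM in Torin2, against 6.48, 9.80, 7.43 and 6.82 FPKM in mock. Solyc01g107140.3 (BHLH84) shares its symbol with an Arabidopsis basic helix-loop-helix factor of the group that drives root hair growth. It had 0.0762, 0.0527, 0.191 and 0 FPKM in Torin2, against 1.68, 2.09, 1.39 and 0.865 FPKM in mock. Solyc01g005630.3 (ERN1), an ethylene response factor type whose namesake acts in legume root hairs during nodulation, had 0.179, 0, 0.115 and 0.0365 FPKM in Torin2, against 4.21, 3.67, 2.70 and 2.15 FPKM in mock. Solyc01g106710.1 (AGL62), a MADS-box factor known from the Arabidopsis endosperm, had 0.341, 0, 0.0812 and 0 FPKM in Torin2, against 0.704, 0.876, 1.69 and 0.948 FPKM in mock. ERN1 kept the smallest share, 2.59%, whereas AGL62 had the lowest mock mean of all 84 genes and, in Torin2 replicate 1, came closest of the 4 factors to the mock range.

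Genes described as early nodulin-like and a cytochrome P450 gene kept between 9.14% and 9.94% of their mock means. Solyc12g005710.3 (UCC1) had 3.55, 2.46, 3.77 and 2.90 FPKM in Torin2, against 34.5, 37.7, 28.7 and 26.6 FPKM in mock. Solyc07g052660.1, with the same symbol, had 1.30, 1.16, 3.13 and 1.57 FPKM in Torin2, against 20.8, 27.3, 17.6 and 12.6 FPKM in mock. Both of these genes had their highest Torin2 value in replicate 3 and their highest mock value in replicate 2. Solyc01g009370.2 (CYP98A2), of a P450 family that hydroxylates precursors of lignin and other phenolics, averaged 0.758 ± 0.332 FPKM in Torin2 and 7.89 ± 3.39 FPKM in mock (SD, n = 4 each).

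Acyltransferases were the most frequent of the metabolic enzymes. In tomato, ASAT enzymes attach acyl chains to sucrose to make acylsugars, the sticky secretion of glandular hairs, and related enzymes of the family act on many other substrates. The names given here are those of the study's list, and whether these genes act in acylsugar synthesis was not tested. Solyc07g043670.1 (PUN1), Solyc07g043700.3 (ASAT3) and Solyc07g043710.5 (ASAT3) lie within 4 successive genes of chromosome 7. Solyc07g043700.3 had 0.293, 0.162, 0.335 and 0.180 FPKM in Torin2, against 12.7, 15.1, 8.48 and 9.28 FPKM in mock. The other 2 averaged 0.726 ± 0.238 FPKM and 0.278 ± 0.0545 FPKM in Torin2, against 7.67 ± 2.08 FPKM and 6.07 ± 1.78 FPKM in mock (SD, n = 4 each). All 3 had their highest mock value in replicate 2 and their lowest in replicate 3.

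On chromosome 11, Solyc11g067290.1 (ASAT3), the sulfotransferase Solyc11g067320.1 and Solyc11g067330.1 (acylsugar acyltransferase 3) were also close to each other. Solyc11g067290.1 had 0.0393, 0.0408, 0.189 and 0.140 FPKM in Torin2, against 3.94, 4.68, 3.85 and 3.92 FPKM in mock, and Solyc11g067320.1 had 0.755, 0.162, 0.530 and 0.425 FPKM in Torin2, against 8.61, 8.59, 9.68 and 8.94 FPKM in mock. These first 2 differed little among the mock libraries, and the 3 genes kept 2.50%, 5.23% and 9.71% of their mock means. Solyc11g012210.1, which carries the symbol ASAT1 but is described as a membrane-bound O-acyltransferase, was the most abundant enzyme of the class, with 1.39 ± 0.905 FPKM in Torin2 and 12.4 ± 2.12 FPKM in mock (SD, n = 4 each). Solyc11g066640.1 (ACT-2), an acyl-transferring enzyme, had 3 fragments in Torin2 against 254 in mock, which is 1.22% of the mock mean with a counting interval of 0.248% to 3.57%.

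The other metabolic enzymes were a mixed set. Solyc01g108740.3 (SABP2, methylketone synthase Ib) averaged 0.562 ± 0.169 FPKM in Torin2 and 8.42 ± 0.744 FPKM in mock, and Solyc10g052600.1 (CLSC5, described as a methyltransferase) 0.718 ± 0.306 FPKM in Torin2 and 5.83 ± 1.39 FPKM in mock (SD, n = 4 each). The glycosyltransferases Solyc11g007370.3 (UGT29) and Solyc09g011090.3 kept 10.5% and 4.53% of their mock means. The hydrolases Solyc06g074340.3, Solyc10g050880.2 (CXE12) and Solyc06g064960.3 (GLIP5) kept 10.8%, 7.60% and 11.2%. Solyc10g046830.3 (HOS3), annotated as a fatty acid elongation protein, kept 5.44%, the acylsugar acetyltransferase Solyc01g105590.2 (BEAT) 6.78%, the glutathione S-transferase Solyc10g007635.1 11.3%, and Solyc05g013650.3, a DUF707 protein, 7.51%. CXE12 had 0.161, 0.0837, 0.288 and 0.165 FPKM in Torin2, against 1.19, 1.68, 1.58 and 4.74 FPKM in mock, where replicate 4 stood well above the others.

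The 3 transporters lay near the limit of the rule. Solyc01g099870.4 (SWEET17), of the SWEET family of sugar carriers, had 0.421, 0.898, 0.702 and 0.430 FPKM in Torin2, against 5.83, 6.94, 6.58 and 5.79 FPKM in mock. Solyc06g035420.1 (PUP3), a purine permease, and Solyc05g009590.3 (ALMT9), described as an aluminum-activated malate transporter and placed at the vacuole membrane, kept 8.51% and 10.8% of mock means of 3.28 and 1.77 FPKM. SWEET17 differed little among the mock libraries. The gene described as heat shock protein 90-1, Solyc03g032230.1, averaged 0.379 ± 0.115 FPKM in Torin2 and 3.43 ± 0.846 FPKM in mock (SD, n = 4 each), and it lies 2 places from IQD20.

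The 6 genes described only as unknown proteins included some of the most abundant. Solyc05g006190.2 had 6.13, 0, 2.98 and 1.42 FPKM in Torin2, against 34.4, 58.7, 50.5 and 29.4 FPKM in mock. Solyc06g060900.1 had 0.265, 0, 0 and 0 FPKM in Torin2, against 21.8, 35.9, 24.3 and 14.9 FPKM in mock. Solyc10g084190.1 had 0.817, 0, 0 and 0.477 FPKM in Torin2, against 23.2, 27.5, 16.7 and 10.4 FPKM in mock. All 3 were above 10 FPKM in every mock library and at 0 in at least 1 Torin2 library, and Solyc06g060900.1 kept 0.274% of its mock mean, the smallest share of any chosen gene with a fragment in Torin2. Their recovered lengths of 218, 381 and 216 bp are short, so that a single fragment weighs more in FPKM than in longer genes. Solyc03g122330.1, Solyc02g090610.1 and Solyc02g090590.1 averaged 4.11, 3.30 and 1.40 FPKM in mock, and the last rests on 3 fragments in Torin2 against 55 in mock, or 5.69% of the mock mean with a counting interval of 1.12% to 17.2%.

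**Figure D3:**
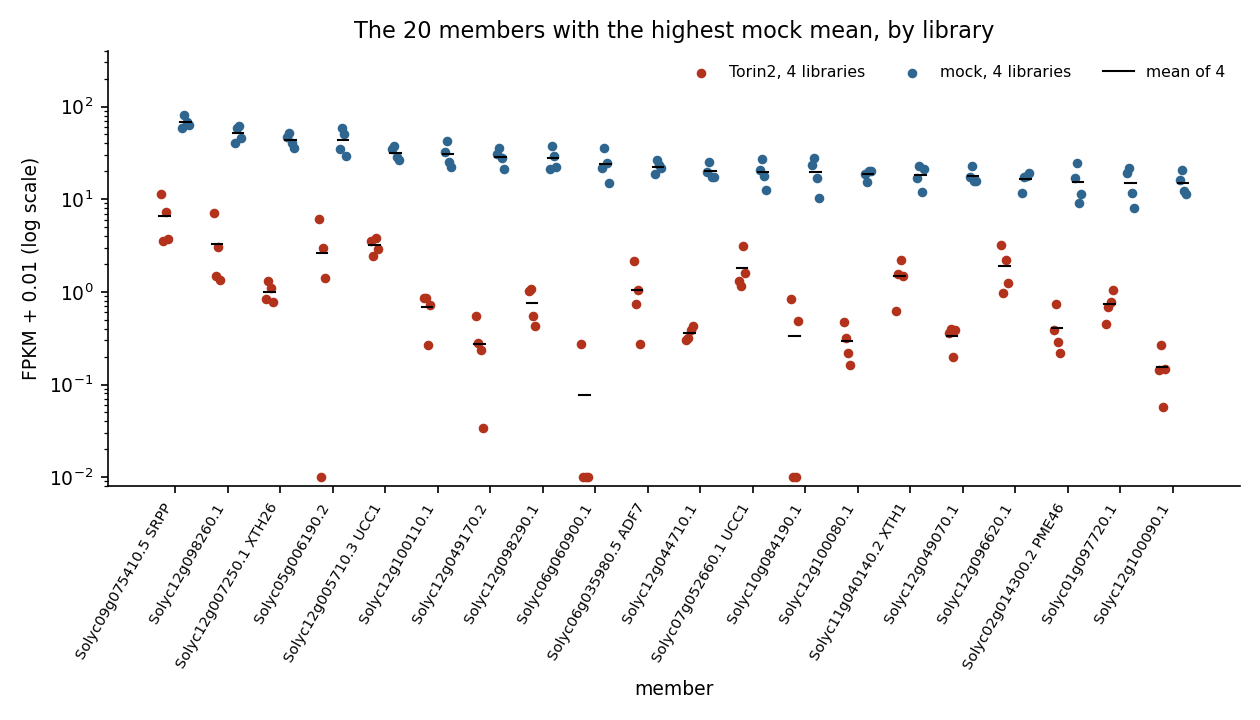
FPKM (vertical, 0.01 added, log scale) in each of the 4 Torin2 libraries (red, left) and the 4 mock libraries (blue, right) for the 20 chosen genes with the highest mock mean, with black lines at the means. No Torin2 point reaches the mock points of the same gene, and the points on the bottom line are libraries at 0, as for Solyc06g060900.1 with 3 Torin2 libraries at 0.

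For 16 genes no description was read here, since the study's list was read only in part. All 16 lie beyond Solyc12g049140.1 on chromosome 12. Position alone did not decide this. Genes there that stand beside chosen ones and rose had a description, such as Solyc12g096600.2 (PARG1) and Solyc12g100240.1 (FAD2-1). Those that fell, such as Solyc12g098240.1 and Solyc12g100220.2, had none. The exclusion of peroxidases could therefore not be applied to these 16 genes. Without them, 68 genes remained, and the Torin2 sum was 6.05% of the mock sum. Several of the 16 were among the most abundant of the 84, with mock means up to 51.6 FPKM and a class median of 12.2 FPKM. They kept a median of 4.50% of the mock mean.

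Solyc12g098260.1 had 7.09, 1.47, 3.04 and 1.34 FPKM in Torin2, against 40.1, 59.0, 61.3 and 46.2 FPKM in mock. Solyc12g098290.1 had 1.01, 1.05, 0.543 and 0.414 FPKM in Torin2, against 21.2, 37.6, 29.2 and 22.2 FPKM in mock. These 2 belong to a run of 6 chosen genes among 8 successive ones, from Solyc12g098230.2 to Solyc12g098300.1, whose recovered lengths lie between 246 and 264 bp. The others, Solyc12g098230.2, Solyc12g098250.1, Solyc12g098270.1 and Solyc12g098300.1, averaged 9.68, 7.16, 3.99 and 14.7 FPKM in mock and kept 9.21%, 6.25%, 9.53% and 1.59%. Of the 2 unchosen genes inside the run, Solyc12g098240.1 also fell, with means of 2.09 FPKM in Torin2 and 11.1 FPKM in mock (limma on log2(FPKM + 0.1), log2 fold change -2.50 ± 0.36 SE, Benjamini-Hochberg adjusted p = 0.000407).

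Further along, Solyc12g100080.1, Solyc12g100090.1, Solyc12g100100.1 and Solyc12g100110.1 follow each other with no gene between them. Solyc12g100110.1 had 0.845, 0.855, 0.259 and 0.719 FPKM in Torin2, against 32.4, 42.8, 25.4 and 22.2 FPKM in mock. Solyc12g100080.1 had 0.467, 0.306, 0.211 and 0.151 FPKM in Torin2, against 18.9, 15.4, 20.3 and 20.2 FPKM in mock. Solyc12g100090.1 and Solyc12g100100.1 kept 0.954% and 0.883% of mock means of 15.0 and 7.83 FPKM. None of the 4 kept more than 2.18%. Solyc12g100230.1, a little further on, kept 6.80%, Solyc12g096620.1 kept 11.5% and Solyc12g056260.1 kept 9.31%.

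The extensin stretch of chromosome 12 also went on into genes without a description. Directly after Solyc12g049140.1 came Solyc12g049150.1, Solyc12g049160.1 and Solyc12g049170.2. Solyc12g049170.2 had 0.545, 0.270, 0.228 and 0.0242 FPKM in Torin2, against 30.4, 35.6, 27.6 and 21.3 FPKM in mock, and kept 0.929%. Solyc12g049160.1 had 0.358, 0.0464, 0.0479 and 0.0913 FPKM in Torin2, against 8.48, 10.4, 7.87 and 6.36 FPKM in mock, whereas Solyc12g049150.1 averaged 0.102 ± 0.0160 FPKM in Torin2 and 1.14 ± 0.181 FPKM in mock (SD, n = 4 each). Near-identical neighbours can share fragments, and how the counting treated them is not given in the sources used here, so the split of level between the genes of a run is uncertain.

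Position was not used by the rule. Chromosome 12, by the gene identifiers, held 26 of the 84 genes (31.0%), against 7.01% of all genes at 1 FPKM or more in mock. Chromosome 4 held none of them, although the left-out peroxidase Solyc04g081860.3 lies there, and the other chromosomes held 1 to 11 each. The exclusion of peroxidases could not be applied to the genes of chromosome 12 without a description, so it did not act evenly on the chromosomes. Counting genes within 2 places of each other in identifier order, 29 genes (34.5%) fell into 9 runs, and 5 runs with 20 genes were on chromosome 12. The XTH26 run, the first extensin run (to Solyc12g049090.3) and the acyltransferase run of chromosome 7 each held genes of 1 description class. The run of chromosome 11 held a sulfotransferase and an acylsugar acyltransferase, which share only the broad class of transferases and other metabolic enzymes. By contrast, the run from the extensin Solyc12g049140.1 went on into genes without a description. Without chromosome 12, 58 genes remained.

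**Figure D4:**
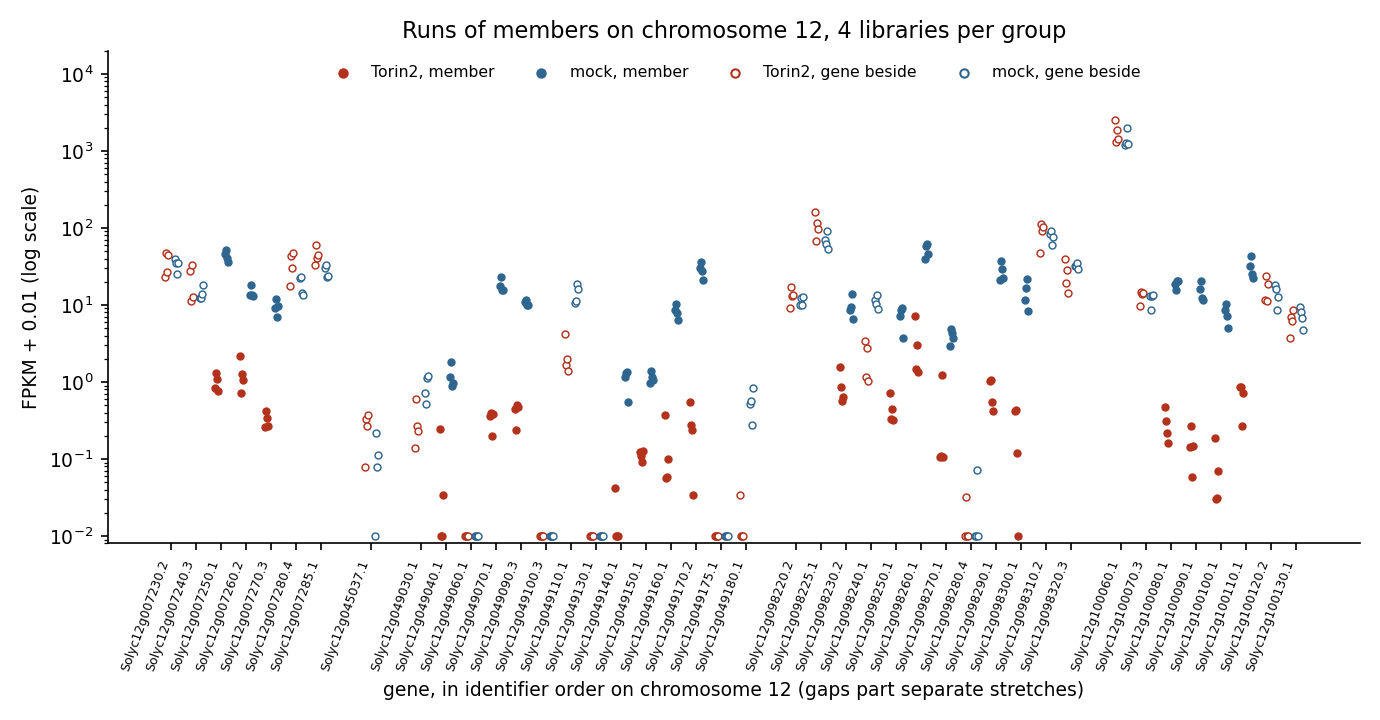
FPKM (vertical, 0.01 added, log scale) for the genes in and beside the 5 runs on chromosome 12 in identifier order, with 4 Torin2 values (red, left) and 4 mock values (blue, right) for each gene. Filled points are chosen genes and open points the genes beside them, and most open red and blue points overlap, as for Solyc12g007240.3, whereas those of Solyc12g098240.1 do not.

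Genes that lie beside the chosen ones but were not chosen give a measure that the rule did not use. Of 22330 genes tested with limma (called past an absolute log2 fold change of 1 at an adjusted p under 0.05), 671 fell, or 3.0%, and 1186 rose, or 5.31%, and after median-of-ratios scaling 1012 fell and 766 rose. Before adjustment, 6502 genes had a p under 0.05. Of the 196 tested neighbours within 2 places of a chosen gene, 16 fell (8.16%) and 11 rose (5.61%). The neighbours hold no chosen gene, whereas the 671 do, and 587 genes other than the chosen ones fell. Several of those that fell, picked out after their values were seen, share a family with the gene beside them: the extensins Solyc01g005890.1 and Solyc01g097710.1, the acylsugar acyltransferase Solyc11g067340.1, the lipase Solyc06g064980.4 (GLIP5) and the glucuronoxylan methyltransferase Solyc05g015495.1. A shared family did not always go with a fall. The glycosyltransferase Solyc11g007390.1 (UGT94E5), near the chosen glycosyltransferase Solyc11g007370.3 (UGT29), rose, with a log2 fold change of 1.70. Most neighbours did not pass the test, and their median log2 fold change of 0.06 lay slightly below the 0.16 of all genes tested (-0.06 and 0.01 after median-of-ratios scaling). With a pseudocount of 1 FPKM, 6 of the 196 fell (3.06%), against 1.99% of all genes, the chosen ones included, so that the gap to all genes was smaller.

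Genes of like description that missed the rule were counted by keyword. Of 38 genes described in the study's list as extensins, xyloglucan endotransglucosylases, expansins, pectinesterases, glyoxal oxidases, sulfotransferases, trichome birefringence proteins or respiratory burst oxidases, 26 fell and 6 rose, and with a pseudocount of 1 FPKM 13 fell and 4 rose. No chosen gene is described as a glyoxal oxidase or a respiratory burst oxidase, and without these families 22 of 33 fell and 5 rose. The study chose its list on these same libraries, so these shares cannot be read against the 3.0% of all genes and are not independent evidence of a direction. Beyond Solyc12g049140.1 on chromosome 12, descriptions were read for neighbours of chosen genes that rose but not for those that fell. The keywords could therefore miss genes that fell there. Of the 9 other expansins, 6 fell and 2 rose. Solyc06g051800.3 (EXPA7) and Solyc08g080060.4 (EXPA18), which share their symbols with root hair expansins of Arabidopsis, averaged 1.65 and 2.29 FPKM in Torin2, against 7.66 and 14.3 FPKM in mock (log2 fold change -2.13 and -2.59, limma with Benjamini-Hochberg adjustment, adjusted p = 0.000163 and 7.14e-06). Both expansin-like B1 genes rose, Solyc08g077900.3 with means of 58.8 FPKM in Torin2 and 19.8 FPKM in mock.

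Of the 6 other extensins 5 fell, among them Solyc03g082790.5 (Dif54) with 3.79 FPKM in Torin2 and 16.7 FPKM in mock, while the extensin-2-like gene Solyc09g098510.4 rose, with 286 FPKM in Torin2 and 124 FPKM in mock. Of the 4 other xyloglucan endotransglucosylases 3 fell and 1 (Solyc12g011030.3, XTH16) rose, and of the 4 other pectinesterase entries 3 fell and 1, an inhibitor-like protein, rose. All 4 other sulfotransferases and both glyoxal oxidases fell. Of the 3 respiratory burst oxidases, enzymes that make superoxide outside the cell, 2 (both RBOHH) fell and Solyc05g025680.3 (RBOHE) rose. Of the 6 other trichome birefringence proteins 1 fell, and the others did not pass the test, with log2 fold changes from -1.29 to -0.91.

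The 9 peroxidases that met the rule but for their name held mock means from 2.65 to 42.0 FPKM. They kept between 0.446% (Solyc11g007220.2) and 7.45% (Solyc12g017870.2) of these means.

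At the limit of the rule on the share, the members just inside were Solyc03g059080.3, Solyc10g052600.1 and Solyc12g096620.1 with 12.4%, 12.3% and 11.5% of the mock mean. The genes just outside were Solyc02g071690.2 (a GDSL esterase/lipase), Solyc04g078040.3 (SYM1) and Solyc03g093620.1 (SOT5, a sulfotransferase) with 14.0%, 14.6% and 15.3%. At the limit on the mock level, Solyc01g106710.1 (AGL62), Solyc05g013650.3 and Solyc12g049140.1 were just inside with 1.06, 1.06 and 1.08 FPKM, and Solyc06g009610.1 (RGL1), Solyc06g075570.2 (RBOHH) and Solyc05g043360.3 (LAC7, a laccase) just outside with 0.965, 0.925 and 0.848 FPKM. In all, 45 further genes met every other condition below 1 FPKM in mock. No gene was kept out by overlap alone, and the smallest gaps were those of Solyc10g007635.1, AGL62 and Solyc02g090590.1, whose lowest mock value was 1.30, 2.07 and 2.41 times the highest Torin2 value, the last level with Solyc12g098270.1.

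Counts behind the low values were small. The fragments of a gene over the 4 Torin2 libraries had a median of 44, against 873 over the 4 mock libraries. At least 1 Torin2 library was at 0 for 19 genes and at least 2 for 11, while no gene was at 0 in any mock library. The spread between replicates was wider in Torin2, with a median coefficient of variation of 57.4% over 83 genes, against 29.3% in mock over 84 genes. The part of the small counts in this spread was not tested. In mock, the 18082 other genes at 1 FPKM or more had a median of 21.9%. The recovered length of the 84 genes had a median of 1035 bp, against 1408 bp for those other genes and 1145 bp for the 587 other genes that fell.

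Libraries within a group were not alike for these genes. Within mock, replicate 2 held the highest value for 58 of the 84 genes (69.0%), against 33.6% of the other genes at that level and 46.3% of the 512 such genes that fell. Its value was a median of 1.39 times the mean of the other 3 mock libraries, against 1.13 times for the other genes. Within Torin2, replicate 1 held the highest value for 32 of 83 genes (38.6%), against 15.0% of the other genes. The part of these libraries in the difference was not tested, but without mock replicate 2 the rule took 76 genes, all of them among the 84.

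**Figure D5:**
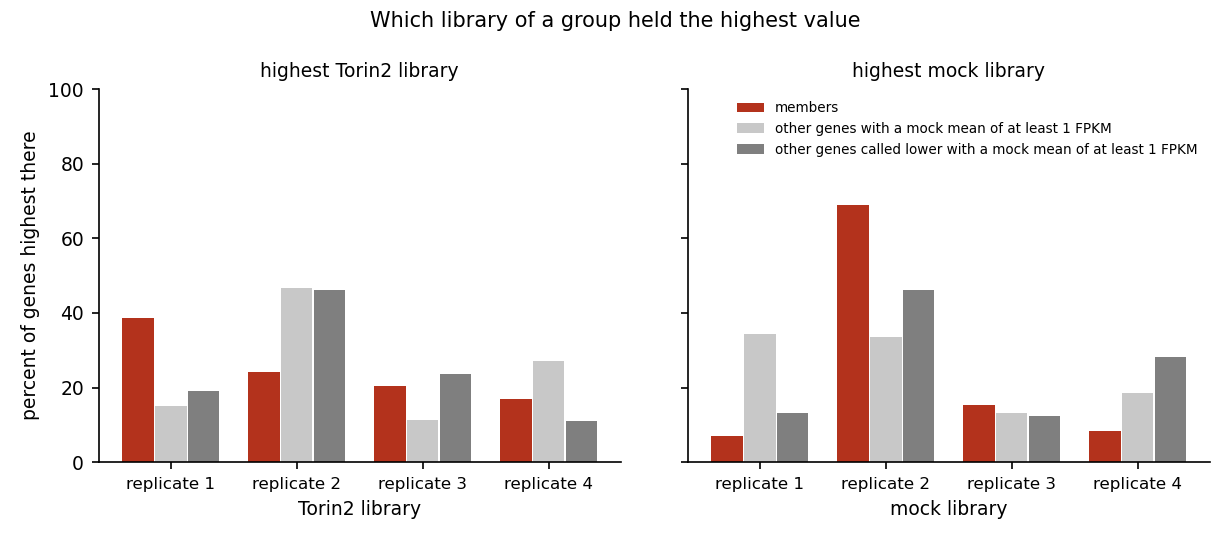
Percent of genes (vertical) whose highest value within the 4 Torin2 libraries (left panel) or within the 4 mock libraries (right panel) fell in each library, for the chosen genes (red), the other genes at 1 FPKM or more in mock (light grey) and those of them that fell (dark grey). Mock replicate 2 held the highest mock value for 69.0% of the chosen genes and 33.6% of the other genes.

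A split of the libraries that the labels do not name also ran through these genes. By the main axis of how libraries departed from the mean of their group, Torin2 replicates 2 and 4 and mock replicates 1 and 2 lay on one side, and Torin2 replicates 1 and 3 and mock replicates 3 and 4 on the other. Each of the 84 genes was lower in Torin2 on both sides, as the rule itself fixes. The median share left was 3.68% of the mock mean on the first side and 7.23% on the second, and 81 and 67 genes were at or below 1/8. The summed level was 36.6 FPKM in Torin2 and 956 FPKM in mock on the first side, and 57.5 FPKM in Torin2 and 766 FPKM in mock on the second.

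Markers of shoot and root were present in both groups. The 3 shoot genes listed for this purpose summed to between 13616 and 21473 FPKM in Torin2 and between 22968 and 30895 FPKM in mock, and 1 of them (Solyc02g063150.3, RBCS1, the Rubisco small subunit) fell, with log2 fold change -1.12 (limma, adjusted p = 0.00226). The 9 root identifiers summed to between 79.4 and 97.9 FPKM in Torin2 and between 87.4 and 124 FPKM in mock, 2 fell, none rose and 2 were at 0 in every library. Most of the sum came from Solyc09g090070.1, with 38.5 FPKM in Torin2 and 63.5 FPKM in mock, and Solyc09g090730.2, with 38.4 and 20.8 FPKM. These moved in opposite directions, and neither passed the test, so the sum hides changes of single genes. Several other root identifiers averaged below 1 FPKM in both groups. Those 2 that fell were also the only ones the study's list describes: Solyc06g051550.5 (FIT, a regulator of iron uptake in roots) averaged 8.04 ± 2.21 FPKM in Torin2 and 15.9 ± 1.95 FPKM in mock, and Solyc02g067190.4, a Casparian strip membrane protein, 0.0990 ± 0.106 FPKM in Torin2 and 0.564 ± 0.141 FPKM in mock (SD, n = 4 each). FIT kept 50.6% of its mock mean and Solyc02g067190.4 17.5%. Of 4 further root genes that were found by their description after the values were seen, the Casparian strip membrane protein Solyc09g010200.5 and the metal transporter Solyc11g018530.2 (NRAMP5) fell, to 47.2% and 41.9% of their mock means, and the CASP-like genes Solyc02g065420.3 and Solyc02g090000.3 rose, to 235% and 233% (limma, same threshold). The part of a change in the makeup of the tissue was not tested.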

How the data were processed

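RNA-seq was measured in 8 libraries of whole seedlings, 4 per group, grouped by the sample labels. Per the study's methods, reads were aligned to tomato genome SL4.0 with HISAT2. The submitters' processing notes also list fastp, FastQC, SAMtools, HTSeq, DESeq2 and DESeq, and the annotation release and gene lengths are not given in the sources used here. The authors deposited FPKM values per gene and library, which were used as they stand. The rule was applied to these values, and the members and lists were chosen with earlier results of these data known. Descriptions came from the 1997 readable entries of the study's gene list, and columns of fold changes and p-values in it were not used.

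Genes averaging 0.1 FPKM or more over the 8 libraries were tested on log2(FPKM + 0.1) with limma 3.58.1 (R 4.3.3, trend, Benjamini-Hochberg adjustment, adjusted p under 0.05 and absolute log2 fold change over 1). Fragments were recovered as whole numbers (within 0.05) from 1 factor per library and 1 length per gene for 25456 of 25571 genes (99.55%). Floors and counting intervals (95%, exact binomial) cover counting error only. The fit and the recovery were tested on simulated data with changed genes. Python 3.11.15, numpy 2.4.6, pandas 2.3.3, scipy 1.17.1 and matplotlib 3.10.9 were used.

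The genes named were the 10 with the highest mock mean, the 10 with the lowest ratio, up to 4 per class, all transcription factors, those 3 just inside and outside each threshold, those in runs and those without a description, and the text names the other members too. Alternatives were other thresholds, pseudocounts of 1 and 0.01 FPKM, other filters, median-of-ratios and TPM scaling, the replicate number as a block and each library left out. No sequence is shown, since no genome was used here, and 0 identifiers were matched to the reference table.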

Additional observations from a re-analysis of the deposited data

Results flagged for a closer look

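Within the groups of 4 libraries, the highest or lowest value of a gene was tested for its gap to the rest on log2(FPKM + 0.1), over 169 groups, and 15 passed Dixon's critical value for 4 libraries, whereas chance flags about 1 in 20 groups. Of these 11 were in Torin2 and 4 in mock. In 5 of the 15 the other 3 libraries were at 0, so that these ties alone put the gap past the critical value and the chance rate does not apply to them. The same holds for Solyc12g098270.1 and Solyc02g090610.1 in Torin2, where the other 3 libraries held 1 fragment each. The count of 15 can therefore not be read against the chance rate.

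In Torin2, a single library stood above the others for Solyc06g060900.1 (0.265 FPKM in replicate 1), Solyc03g122330.1 (0.671 FPKM in replicate 2), Solyc03g032243.2 (IQD20, 0.0413 FPKM in replicate 1), Solyc03g118930.2 (XAT2, 0.0168 FPKM in replicate 2) and Solyc12g049140.1 (Ext1, 0.0321 FPKM in replicate 1), with the other 3 at 0. It also did for Solyc12g098270.1 (1.23 FPKM in replicate 3, the others from 0.0955 to 0.0991 FPKM), Solyc02g090610.1 (0.499 FPKM in replicate 1, the others from 0.0850 to 0.0892 FPKM) and Solyc10g007635.1 (glutathione S-transferase, 0.797 FPKM in replicate 4, the others from 0.130 to 0.186 FPKM). A single Torin2 library stood below the others for Solyc12g100110.1 (0.259 FPKM in replicate 3), Solyc12g049070.1 (extensin-like, 0.187 FPKM in replicate 3) and Solyc12g049090.3 (Ext1, 0.227 FPKM in replicate 2).

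In mock, replicate 2 stood above the others for Solyc12g007260.2 (XTH26, 18.0 FPKM against 12.9 to 13.5 FPKM) and Solyc11g067290.1 (ASAT3, 4.68 FPKM against 3.85 to 3.94 FPKM). It stood below them for the C1 domain gene Solyc12g038680.1, with 0.585 FPKM against 1.82 to 2.04 FPKM. For Solyc12g049140.1, mock replicate 4 was low, with 0.546 FPKM against 1.16 to 1.34 FPKM.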

How the results depend on the processing

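The number of chosen genes followed the thresholds: 150 with a share of up to 1/4, 45 with up to 1/16 and 45 with a mock mean of at least 5 FPKM. With a mock mean of 0.5 or 2 FPKM, median-of-ratios or TPM scaling, overlap allowed or peroxidases kept it lay between 67 and 99. With each library left out it ranged from 76 to 85. Chosen after seeing the data, the 2 sides of the split of libraries gave 100 and 71 genes, of which 79 and 62 were among the 84, and the Torin2 sum was 3.83% and 7.51% of the mock sum. With each library left out the share of the sum over all libraries ranged from 4.79% to 5.96%. A pseudocount of 1 FPKM moved the counts that fell to 444 of all genes, 6 of the neighbours and 13 of the genes of like description. Median-of-ratios scaling gave 1012 of all genes. A filter at a mean of 1 FPKM left fewer genes to test, with 10 of 160 neighbours and 16 of 23 genes of like description falling. Neighbours within 5 places gave 28 of 474 (5.91%), and within 1 place 12 of 110 (10.9%). With each library left out, 492 to 794 genes, 12 to 17 neighbours and 20 to 25 genes of like description fell. The cause of these shifts was not tested.

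With the replicate block, 674 genes, 16 neighbours and 25 genes of like description fell, and no other call rested on it. No pairing by replicate number was seen: the deviations of same-numbered libraries correlated at -0.38, 0.38, 0.40 and -0.25, and 2 of 8 libraries correlated best with their own number. In sign, these correlations followed the 2 sides of the split of libraries, so they cannot decide whether the numbers pair the libraries. By the geometric mean of same-numbered ratios, with its 0.1 FPKM added, 19 of the 84 chosen genes lay above 1/8. Under median-of-ratios or TPM scaling, the ratio of medians or each library left out, 0 to 8 did. On the 2 sides of the split of libraries, 81 and 67 were at or below 1/8.

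Fragments limit the low end, where 5 genes rest on 1 to 3 Torin2 fragments and 1 on none.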
